A study of Homo sapiens with 4 samples.

Results

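A set of 8 chaperone genes was followed through the splicing of their nascent RNA: the HSP90 genes HSP90AA1, HSP90AB1 and HSP90B1, the HSP70 and HSP110 genes HSPA4, HSPA5 and HSPH1, and the HSP60 gene HSPD1 with its HSP10 partner HSPE1. They were taken by name, as chaperones with short, highly transcribed introns. Their annotated transcripts held 122 unique introns with reads in at least 1 sample, of 209481 in the whole series, and 8 of its 17770 genes. The cells were K562, a chronic myeloid leukaemia line. The WT group carried wild-type SF3B1 (2 samples) and the K700E group carried the SF3B1 K700E substitution (2 samples). Per the labels both groups, WT included, received doxycycline at 1 µg/ml to induce the modified allele and were collected at day 4. SF3B1 is the U2 small nuclear ribonucleoprotein subunit that helps to hold the branch point of an intron. Chromatin-bound RNA, isolated in buffers with 25 µM α-amanitin and depleted of polyadenylated and ribosomal RNA, was sequenced as PacBio long reads, so that each read shows which introns had been removed while the RNA was still on chromatin.

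HSP90 proteins complete the folding of client proteins such as kinases and steroid receptors in an ATP-driven clamp. HSP70 proteins bind exposed hydrophobic stretches of newly made or damaged proteins and release them on nucleotide exchange, which HSP110 proteins catalyse. HSP60 forms a barrel in the mitochondrial matrix that is capped by HSP10. Several of these genes are switched on strongly by heat shock factor or by the unfolded protein response, and in a myeloid leukaemia line they are expressed without added stress.

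Splicing efficiency here means junction reads at an intron as a percentage of all reads over it. Depth is given as read-intron overlaps, summed over unique introns: 1346733 and 1185006 in WT replicates 1 and 2, and 459681 and 909621 in K700E. The chaperone genes accounted for 6367 and 1703 of these in WT replicates 1 and 2 and for 670 and 1465 in K700E replicates 1 and 2. WT replicate 1 stands apart for these genes, with up to 9.06 times the scaled overlaps of WT replicate 2, and values without it are given for several results. One long read counts once in each intron it covers, and no molecular identifiers are mentioned, so the 95% Wilson intervals below cover counting error only. The labels name neither separate cultures for the replicates nor the clones behind each line. The tests know only the scatter of these samples, pooled over introns where single introns are tested, and that scatter may be technical. The labels call the cells epithelial. Of 6 epithelial marker genes 1 had reads in every sample, and their summed level was 8.91 to 18.6 CPM (overlaps scaled to 1000000 in a sample) in WT and 26.1 to 53.9 in K700E. Of 11 erythroid and K562 marker genes 9 had reads in every sample, with 2927 to 4581 CPM in WT and 2880 to 2967 in K700E. That sum rests mainly on TFRC, with 730 to 3571 overlaps per sample, and BCR, with 457 to 1096. The globin gene HBG1 had 7 to 215 overlaps per sample, GATA1 had 4 to 11, and KLF1 had 0 throughout. The summed level is therefore no measure of how erythroid the cells were. Which SF3B1 allele a sample expressed cannot be read from these counts.

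The genes differed in how far they were spliced in WT cells. HSPE1 had no spliced read among 34 and 11 overlaps in WT, and HSP90AA1 came next at 29.6% ± 14.2 (SD, n = 2). Of the HSPE1 overlaps in WT, 25 lay over intron 3 and 18 over an annotated 155-nt alternative without junction reads. The place of HSPE1 in this order thus rests almost wholly on 1 main-transcript intron and an unused annotation. HSP90AB1 followed at 48.5% ± 4.86, HSPD1 at 54.1% ± 7.84 and HSPA4 at 59.4% ± 16.6. HSPH1 at 60.8% ± 0.885, HSPA5 at 65.1% ± 14.6 and HSP90B1 at 65.4% ± 2.08 were the highest. Neighbours in this order from HSP90AB1 upward overlapped in their WT samples. HSP90AA1 lay below HSP90AB1 in both, and HSPE1 below HSP90AA1. The median of the 8 genes was 56.8%. Over the introns of each gene's main coding transcript alone, HSPA4 reached 81.0% ± 19.1 and HSP90B1 80.1% ± 2.07, because annotated introns that no read used drop out. HSP90AA1 remained the lowest after HSPE1, at 36.6% ± 17.8.

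**Figure D1:**
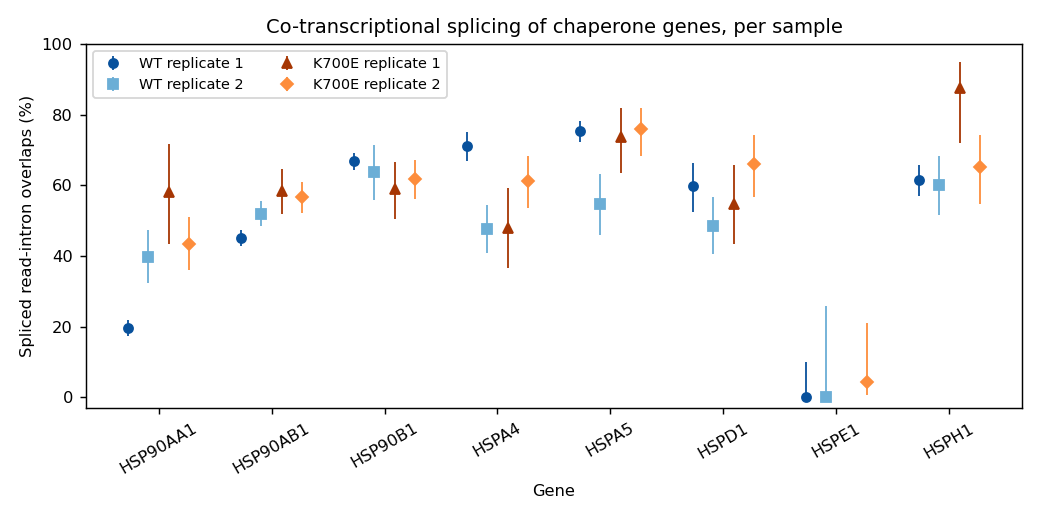
Share of read-intron overlaps that were spliced (%, vertical axis) for each chaperone gene (horizontal axis) in the 4 samples; points are samples and bars are 95% Wilson intervals. HSP90AA1 ranges from 19.5% in WT replicate 1 to 58.1% in K700E replicate 1, HSPE1 is at or near 0, and it had no reads in K700E replicate 1.

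HSP90AA1 encodes the stress-inducible cytosolic HSP90α. WT replicate 1 spliced 19.5% (17.2 to 22.0) of its 1050 overlaps and WT replicate 2 39.6% (32.4 to 47.4) of 159. K700E replicate 1 spliced 58.1% (43.3 to 71.6) of 43 and K700E replicate 2 43.5% (36.2 to 51.0) of 168. Both K700E samples lay above both WT samples, although WT replicate 2 and K700E replicate 2 were within each other's intervals. The means differed by 21.2 percentage points, with a log2 odds ratio of 1.34 ± 0.63 (SE) and an adjusted p of 0.9995 (edgeR quasi-likelihood test). Without WT replicate 1 the difference was 11.2 points. Its most read intron, the 92-nt intron 2 of 10 between coding exons (hg38 chr14:102086125-102086216, minus strand), had 53 junctions among 223 reads in WT replicate 1, or 23.8%. WT replicate 2 had 19 among 23, or 82.6%, K700E replicate 1 had 3 of 3 and K700E replicate 2 had 14 of 22, or 63.6%. Most reads of WT replicate 1 were thus unspliced at this short intron. Its 23.8% lay near the 24.1% of the gene's main-transcript introns in that sample. The 19.5% of the gene also counts annotated introns that no read used. Introns 3 and 8 were lower in that sample, at 11.1% and 12.6%. Annotated alternatives of 533 and 785 nt had no junction among 127 and 67 reads there. In intron 3, picked with its values in view, 21 of 190 reads were spliced in WT replicate 1, 6 of 19 in WT replicate 2, 3 of 4 in K700E replicate 1 and 12 of 19 in K700E replicate 2. The first intron lies in the 5′ UTR and was spliced in 28 of the 31 reads over it. No intron of HSP90AA1 reached 10 reads in every sample, so none was tested singly.

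The sequences of 2 of its short introns are shown because they lie in a gene with a majority of unspliced overlaps in both WT samples. GENCODE 29 transcripts that retain them supply the letters. The first 6 bases (the 5′ splice site) and the last 3 (the 3′ splice site) are in capitals.
HSP90AA1 intron 2: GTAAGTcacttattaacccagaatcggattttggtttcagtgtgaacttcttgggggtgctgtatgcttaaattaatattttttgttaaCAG
HSP90AA1 intron 5: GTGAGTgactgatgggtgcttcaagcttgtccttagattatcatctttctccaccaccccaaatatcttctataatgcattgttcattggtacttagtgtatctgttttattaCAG
In the 20 bases before the terminal CAG, intron 2 had 11 pyrimidines and intron 5 had 13. Over all samples 32.8% of 271 reads were spliced at intron 2 and 43.5% of 62 at intron 5 (116 nt, chr14:102084565-102084680). WT replicate 1 gave 223 of the 271 reads at intron 2, with 23.8% spliced. There WT replicate 2 stood at 82.6%, K700E replicate 1 at 3 of 3 reads and K700E replicate 2 at 63.6%.

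HSP90AB1, the constitutive cytosolic HSP90β, had the most overlaps of these genes, and 9 of its 13 unique introns had at least 10 reads in every sample. Its efficiency was 45.1% in WT replicate 1, 52.0% in WT replicate 2, 58.4% in K700E replicate 1 and 56.6% in K700E replicate 2. Both K700E values were higher. The difference of 8.94 points had a log2 odds ratio of 0.52 ± 0.35 (SE) and an adjusted p of 0.9995 (edgeR), and it was 5.51 points without WT replicate 1. The 91-nt intron 3 (chr6:44249584-44249674, plus strand, between coding exons) had the most reads of any chaperone intron. It was spliced in 41.6% of 375 and 55.0% of 129 WT reads, and in 61.8% of 34 and 64.5% of 62 K700E reads. The difference of 14.8 points was 8.10 without WT replicate 1. Intron 7 (204 nt, chr6:44251214-44251417) was spliced in 38.7% and 39.1% of 194 and 64 WT reads, and in 72.7% and 59.5% of 11 and 37 K700E reads. The WT intervals were 32.1 to 45.7 and 28.1 to 51.3, and those of K700E 43.4 to 90.3 and 43.5 to 73.7. Intron 8, which follows it (128 nt, chr6:44251609-44251736), went the other way, with 58.8% and 59.3% of 136 and 59 WT reads against 36.4% and 42.3% of 11 and 26 K700E reads. The mean differences were 27.2 points for intron 7 and -19.7 points for intron 8, and each had an adjusted p of 0.984 (edgeR).

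Other introns of HSP90AB1 ranged widely. Intron 2 (600 nt, chr6:44248777-44249376), which parts the first coding exon from the next, was the most fully spliced of its tested main-transcript introns, at 82.4% and 80.6% in WT against 81.5% and 94.4% in K700E. Introns 4 and 5 lay at 39.0% to 58.4% in WT and at 47.4% to 70.0% in K700E, and the groups overlapped in both. Intron 6 had only 8 reads in K700E replicate 1 and was not tested. It was picked with its values in view: 55 of 136 and 21 of 41 WT reads were spliced, against 7 of 8 and 24 of 28 K700E reads.

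The annotated first intron of the main HSP90AB1 transcript (1421 nt, 5′ UTR, chr6:44247196-44248616) had no junction reads among 194 reads, which allows a share of up to 1.55%. The intron that shares its 5′ splice site and ends 13 nt downstream (1434 nt, to 44248629) held 182 junction reads. It was spliced in 90.1% and 93.3% of 81 and 60 WT reads and in all 19 and 33 K700E reads (K700E replicate 1 lists 20 junctions over 19 reads, taken as 100%), with an adjusted p of 0.984 (edgeR). The downstream site was thus the only one of the pair with junction reads in any of the 4 samples. The stretch is shown to place both sites: capitals mark the 13 bases between them, and the lower-case letters after them begin with the ATG start codon of HSP90β.
HSP90AB1 intron 1 acceptor region (chr6:44248617-44248639): ATTTTTATTTTAGatgcctgagg

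**Figure D2:**
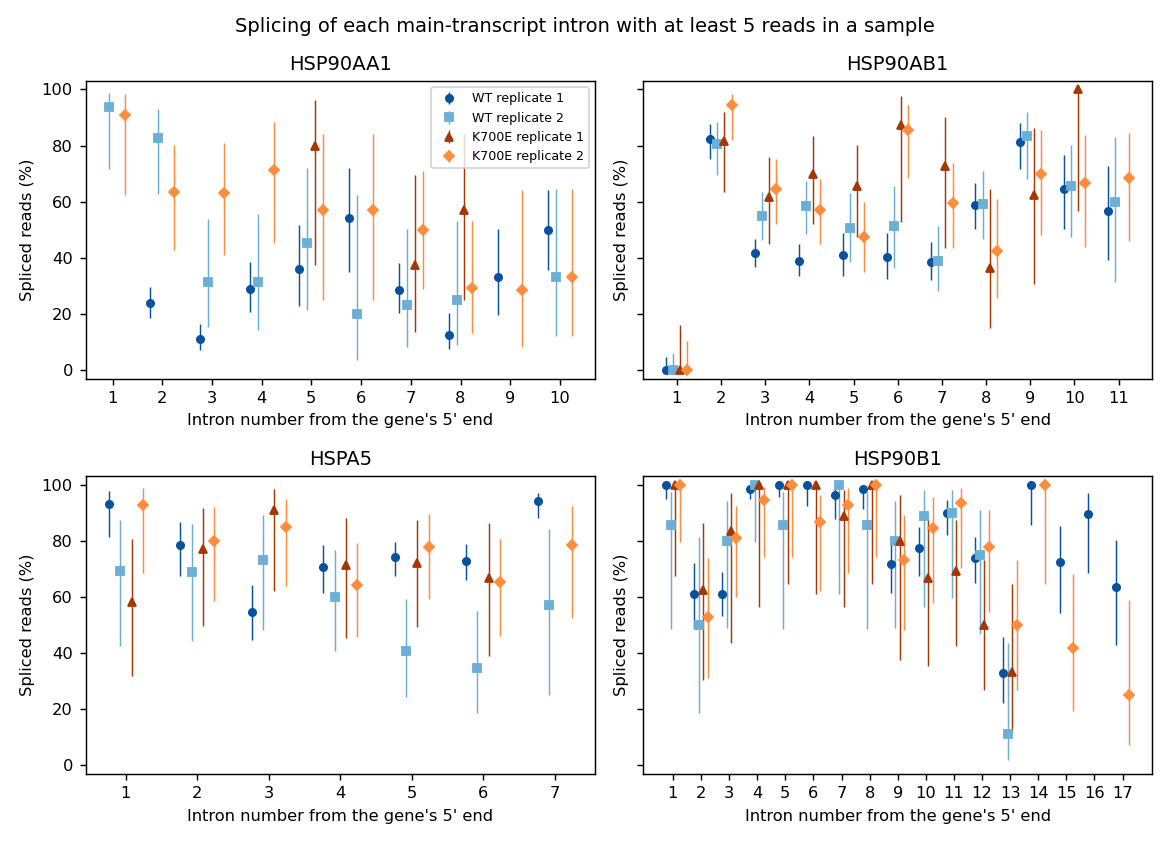
Spliced reads (%, vertical axis) at each main-transcript intron, numbered from the 5′ end (horizontal axis), for HSP90AA1, HSP90AB1, HSPA5 and HSP90B1; points are samples with at least 5 reads over the intron and bars are 95% Wilson intervals. HSP90AB1 intron 1 is at 0 in every sample, introns 7 and 8 separate the groups in opposite directions, and introns of HSP90B1 reach 100% beside intron 13 at 33.3% over all samples.

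HSPA5 encodes BiP, the HSP70 of the endoplasmic reticulum, and 6 of its 7 introns were tested. The gene was spliced to 75.4% in WT replicate 1, 54.8% in WT replicate 2, 73.8% in K700E replicate 1 and 75.8% in K700E replicate 2. WT replicate 2 was the low sample, and the groups overlapped. The difference was 9.74 points, 20.1 without WT replicate 1 and -0.576 without WT replicate 2. Intron 3 (638 nt, chr9:125239534-125240171, minus strand) was spliced in 54.7% and 73.3% of 95 and 15 WT reads and in 90.9% and 85.0% of 11 and 20 K700E reads. Its groups did not overlap. The difference of 23.9 points was 14.6 without WT replicate 1. Its log2 odds ratio of 2.29 ± 1.15 (SE) had an unadjusted p of 0.047 and an adjusted p of 0.984 (edgeR). The most read intron, intron 5 (113 nt, chr9:125238828-125238940), was at 74.1% and 40.7% in WT against 72.2% and 77.8% in K700E. Intron 6 (281 nt) had the lowest WT mean of the gene's tested introns, with 72.8% and 34.8% in WT against 66.7% and 65.4% in K700E. Without WT replicate 1 the differences of introns 5 and 6 were 34.3 and 31.2 points. In intron 6 the mean over all samples was higher in K700E by 12.2 points while the odds ratio, which weights reads, was -0.19 on the log2 scale. Intron 1 (97 nt) had the highest WT mean, with 93.0% and 69.2% in WT against 58.3% and 92.9% in K700E.

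HSP90B1 encodes GRP94, the HSP90 of the endoplasmic reticulum. It was spliced to 66.8% and 63.9% in WT and to 58.9% and 61.9% in K700E, and was the only gene of the 7 tested with both K700E samples below both WT samples. The difference of -5.00 points had an adjusted p of 0.9995 (edgeR). Over main-transcript introns alone HSP90B1 stood at 81.6% and 78.6% in WT against 72.2% and 79.3% in K700E, and the groups overlapped. Its introns fell into contrasting levels. Introns 1, 4, 5, 7 and 8, of 956 to 3407 nt, were spliced in 96.8% to 98.9% of the reads of both WT samples. Intron 4 (1013 nt, chr12:103932943-103933955, plus strand) was spliced in 171 of 174 and 15 of 15 WT reads and in 5 of 5 and 17 of 18 K700E reads. Intron 13 (418 nt), picked with its values in view, was spliced in 19 of 58 and 1 of 9 WT reads and in 3 of 9 and 7 of 14 K700E reads. Of the 2 tested main-transcript introns, intron 11 was at 90.0% and 90.0% in WT against 69.2% and 93.3% in K700E. Intron 12 (277 nt, chr12:103942797-103943073) was at 74.0% and 75.0% in WT against 50.0% and 77.8% in K700E. In both, K700E replicate 1 was low on 13 and 14 reads while K700E replicate 2 was above WT.

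An 87-nt stretch at the start of HSP90B1 intron 2 is annotated as an intron of another transcript (chr12:103931624-103931710) and shares the 5′ splice site of intron 2. Its own junction had no reads among 201 over the stretch, which allows a share of up to 1.49%, while intron 2 (653 nt) was spliced in 58.9% of 95 reads. It is shown beside intron 9 (81 nt, chr12:103941548-103941628), of like length and spliced in 73.0% of 115 reads, with splice sites in capitals as before.
HSP90B1 87-nt annotated alternative: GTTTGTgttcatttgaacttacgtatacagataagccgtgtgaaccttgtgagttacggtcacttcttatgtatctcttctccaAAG
HSP90B1 intron 9: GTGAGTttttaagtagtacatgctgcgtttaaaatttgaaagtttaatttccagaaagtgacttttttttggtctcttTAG
Both have 16 pyrimidines in the 20 bases before the last 3, and they differ in the letters at the 5′ splice site and in the last 3 bases.

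HSPA4 encodes APG-2, an HSP110-type nucleotide exchange factor. It was spliced to 71.1% and 47.6% in WT against 47.9% and 61.2% in K700E, and the groups overlapped. Introns 1 (12622 nt) and 7 (9883 nt) are the longest main-transcript introns of any member. Those were spliced in 16 of 16 and 43 of 45 WT reads. The most read intron, intron 10 (400 nt, chr5:133089162-133089561, plus strand), was spliced in 72.7% and 65.0% of 44 and 20 WT reads and in 57.1% and 68.8% of 7 and 16 K700E reads. The annotation also lists 4 gaps of 1 to 5 nt in HSPA4 transcripts as introns, and none had a junction read. Toward the 3′ end, overlaps were summed over introns 12 to 18. In WT replicate 1, 36 of 40 were spliced, and in WT replicate 2, 1 of 23. K700E replicates 1 and 2 had 10 of 11 and 20 of 27. A read over several of these introns counts in each, so these overlaps need not come from separate molecules. These 7 introns were grouped with their values in view. The unused gaps lower the sum over all unique introns, as do annotated alternatives of 473 and 1503 nt without junction reads. Over main-transcript introns alone the samples were at 94.5% and 67.6% in WT against 75.6% and 83.9% in K700E.

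HSPH1 encodes HSP105, the heat-inducible HSP110. It was spliced to 61.4% and 60.2% of 469 and 128 overlaps in WT, and to 87.5% and 65.1% of 32 and 86 overlaps in K700E. Both K700E samples were higher, by 15.5 points on average, with an adjusted p of 0.9995 (edgeR), and the larger value rested on 32 overlaps. The difference was 4.33 points without K700E replicate 1 and 26.7 without K700E replicate 2. Intron 6 (417 nt, chr13:31151192-31151608, minus strand) held the most reads and was spliced in 36 of 104 and 9 of 25 WT reads and in 3 of 4 and 5 of 20 K700E reads. The next intron, intron 7 (764 nt), was spliced in all 53 WT reads and all 15 K700E reads. Neighbouring introns of this gene therefore stood at 34.6% and 100% over all samples. The final 60 bases of intron 6 (last 3 in capitals) are shown because most reads kept it.
HSPH1 intron 6, last 60 bases: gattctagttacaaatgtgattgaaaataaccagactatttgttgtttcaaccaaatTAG

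HSPH1 also makes a shorter protein, HSP105β, by skipping an exon. An annotated 4303-nt intron (chr13:31141260-31145562) joins the exons on either side of it. Its junction was seen in 6 of 10 reads in WT replicate 1, in 0 of 2 in WT replicate 2, in no read over it in K700E replicate 1 and in 0 of 2 in K700E replicate 2. Intron 11, which it overlaps and which joins the exon in, had 4, 4, 1 and 4 junction reads in the same samples. The skipping junction was thus seen in WT replicate 1 alone, on few reads in each sample. The skipped exon has 132 bases, or 44 codons.
HSPH1 skipped exon (chr13:31143792-31143923): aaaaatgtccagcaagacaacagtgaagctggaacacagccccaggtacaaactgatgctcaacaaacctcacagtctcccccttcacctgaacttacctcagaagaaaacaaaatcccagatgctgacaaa
A further annotated alternative, a 3118-nt intron at the 5′ end of HSPH1, had 1 junction read beside 17 at the overlapping intron 1.

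HSPD1 encodes HSP60. It was spliced to 59.7% and 48.6% in WT and to 54.8% and 66.0% in K700E, and the groups overlapped. The difference of 6.28 points was 11.8 without WT replicate 1. Its most read intron, intron 2 (1282 nt, chr2:197497393-197498674, minus strand), was spliced in 86.2% and 75.9% of 29 and 29 WT reads and in 85.7% and 83.3% of 7 and 12 K700E reads. Intron 5 (406 nt), picked with its values in view, had 6 spliced of 38 WT reads and 8 of 21 K700E reads. An annotated site 6 nt away gave the same counts in every sample, so the pair was not resolved. Both enter the gene values above, which count these reads under each. Over main-transcript introns alone HSPD1 stood at 67.9% and 51.1% in WT against 56.9% and 70.3% in K700E, and the groups overlapped. A 1309-nt alternative first intron had 2 junction reads against 34 at the main one.

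HSPE1 encodes HSP10, the lid of the HSP60 barrel, and is transcribed away from HSPD1 from the region between them. It had 34, 11, 0 and 23 overlaps in WT replicates 1 and 2 and K700E replicates 1 and 2. A single overlap, in K700E replicate 2, was spliced. The gene was too thin for a test. Its 80-nt intron 3 (chr2:197503129-197503208, plus strand) was unspliced in all 38 reads over it, which allows a spliced share of up to 7.89%.
HSPE1 intron 3: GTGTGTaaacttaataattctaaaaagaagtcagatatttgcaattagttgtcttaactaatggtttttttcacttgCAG
The annotation holds 26 pseudogenes named after HSPE1, 17 after HSPD1, 5 after HSP90AB1, 4 after HSP90AA1 and 2 after HSP90B1. The sources used here do not state how reads that fit more than 1 copy were treated, and values for these genes are uncertain to that extent.

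The comparison of K700E with WT asked whether these introns were removed less or more often on chromatin in mutant cells. No chaperone intron or gene differed at an adjusted p under 0.05. Of the 15 chaperone introns tested, 1 had an unadjusted p under 0.05, and DESeq2 called 0. Among all introns 0.0982% were called. Groups did not overlap in 4 of the 15 with K700E higher and in 1 with K700E lower. Over all 5093 introns tested the shares were 9.19% higher and 19.9% lower. With means at least 10 points apart, 3 were higher (HSP90AB1 introns 3 and 7, HSPA5 intron 3) and 1 lower (HSP90AB1 intron 8), against 3.59% and 9.46% of all introns. The median difference was 8.27 points for the chaperone introns and -1.67 points for all introns. Of these 15 introns 13 belong to HSP90AB1 and HSPA5, and introns of a gene share reads.

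At the level of genes, 7 were tested, 0 were called and 0 had an unadjusted p under 0.05 (edgeR); DESeq2 also called 0, with 1 at an unadjusted p under 0.05. HSP90AA1, HSP90AB1 and HSPH1 were higher in K700E without overlap and HSP90B1 was lower, against 10.3% and 21.1% of all 5085 genes tested, of which 0.0% were called. Over main-transcript introns alone the HSP90B1 groups overlapped. The median difference of the 7 was 8.94 points and that of all genes -2.55 points. On simulated counts the gene test recovered 76% of genes with a log2 odds ratio of 4 and 16% of those with 2. It also called 10 unchanged genes there. The intron test recovered 19.6% and 1.08%, so a shift of the sizes seen here would mostly have been missed. With an estimated dispersion the intron test recovered 0% of either size.

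Nascent RNA from these genes was measured as read-intron overlaps in CPM, a relative measure of a bulk sample in which fewer cells and less RNA per cell cannot be told apart. WT replicate 1 was the highest of the 4 samples in 6 of the 8 genes. HSP90AA1 had 780 CPM in WT replicate 1, 134 in WT replicate 2, 93.5 in K700E replicate 1 and 185 in K700E replicate 2. HSP90B1 had 1101, 122, 307 and 320 in the same order, and HSPA5 had 604, 106, 183 and 164. In these 3 genes WT replicate 2 lay within or below the range of the K700E samples. HSP90AB1 had 1389, 661, 492 and 519, and HSPH1 had 348, 108, 69.6 and 94.5, so that in both the WT samples lay above both K700E samples. HSPA4 had 342, 177, 154 and 187, HSPD1 138, 120, 159 and 117, and HSPE1 25.2, 9.28, 0 and 25.3.

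**Figure D3:**
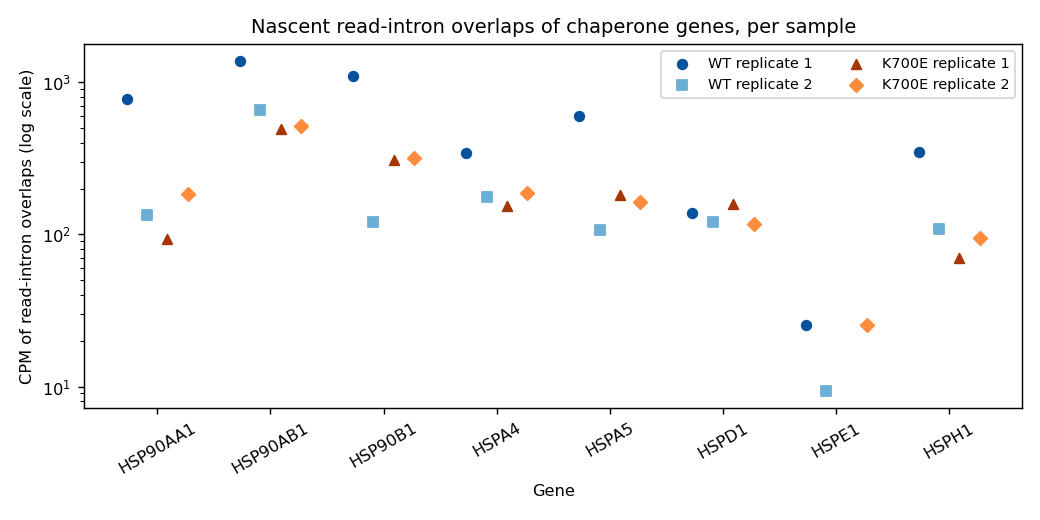
Read-intron overlaps in CPM (vertical axis, log scale) for each chaperone gene (horizontal axis), 1 point per sample; HSPE1 in K700E replicate 1 is at 0 and is not drawn. WT replicate 1 stands above the other samples for HSP90AA1, HSP90B1, HSPA5 and HSPH1, while HSPD1 lies between 117 and 159 in all 4.

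The excess in WT replicate 1 was wide in several genes. The ratio of WT replicate 1 to WT replicate 2 was 9.06 for HSP90B1, 5.81 for HSP90AA1, 5.68 for HSPA5, 3.22 for HSPH1, 2.10 for HSP90AB1, 1.93 for HSPA4 and 1.15 for HSPD1. It was at least 3 in 4 of these 7 genes and in 4.84% of the 5121 genes with 10 overlaps in every sample, whose median ratio was 0.92. In other lists of folding genes the median ratio was 1.45 for 13 genes of the endoplasmic reticulum, 1.24 for 6 of mitochondrial proteostasis, 1.21 for 16 HSP40 and HSP70 co-chaperones, 0.81 for 8 CCT and prefoldin genes, 0.74 for 8 HSP90 relatives and 0.73 for 5 HSP70 relatives. HSF2, the single heat shock factor with 10 overlaps in every sample, had a ratio of 2.60. The 2 samples of a group have the same labels, and what set them apart was not tested.

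The test of nascent reads used the most covered intron of each gene, since separate reads are counted there. For HSP90B1 that is the 87-nt stretch described above. It covered 3 members. HSP90AB1 had 375 and 129 such reads in WT against 34 and 62 in K700E, a log2 fold change of -1.63 ± 0.74 (SE) with an adjusted p of 0.562 (edgeR). HSPA5 had -1.51 ± 0.77 with an adjusted p of 0.582, and HSP90B1 -1.20 ± 0.78 with 0.623, both by edgeR. Of the 3, 1 had an unadjusted p under 0.05, DESeq2 called 0 and gave an adjusted p for HSP90AB1 alone (0.068), and 0.0% of 822 genes were called. In HSP90AB1 the groups did not overlap, which held for 13.7% of all genes tested with K700E lower. Without WT replicate 1 the log2 fold changes were -0.75, 0.43 and 1.36 for HSP90AB1, HSPA5 and HSP90B1, so that the last pair changed direction. Without WT replicate 2 they were -2.20, -2.33 and -2.08 with adjusted p of 0.0438, 0.0293 and 0.0334 (edgeR), in a fit that called 85 genes in all and takes the lone WT sample to vary like the others. Summed over introns, all 7 members with 10 overlaps in every sample had a lower estimate in K700E, from -1.93 for HSP90AA1 to -0.12 for HSPD1, with adjusted p of 0.523 to 0.990 (edgeR), while 0.0781% of all genes were called that way. Among them HSP90AB1 and HSPH1 did not overlap between groups, against 11.6% of all genes.

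Short introns were part of the reason for choosing these genes, so their lengths describe that choice and are no finding. Of the 94 main-transcript introns 16 (17.0%) were under 150 nt, against 9.77% of 117954 in other genes, and the median lengths were 636 and 1500 nt. In WT cells efficiency went with length among chaperone introns (Spearman's rho 0.47 over 88 introns, a description, since introns of a gene share reads and depth) and among other introns (0.33 over 39537). Chaperone introns under 150 nt were spliced in 52.5% and 57.7% of overlaps in WT against 60% or more in both K700E samples. Those from 150 to under 500 nt were spliced in 45.9% and 48.2% in WT against 64.7% and 61.5% in K700E. In both classes both K700E values were above both WT values. These are pooled overlaps, so the most read genes weigh most, and the mix of genes differed between samples. HSP90AA1 gave 1050 of 6367 and 159 of 1703 chaperone overlaps in WT, against 43 of 670 and 168 of 1465 in K700E. Single introns under 150 nt went both ways: HSP90AB1 intron 3 was higher in K700E, and its introns 8 and 9 were lower. In other genes the shorter class stood at 73.8% and 69.4% in WT against 56.6% and 65.7% in K700E, and the next at 73.1% and 68.2% in WT against 57.4% and 66.4%. Chaperone introns from 500 to under 1000 nt stood at 80.5% and 72.6% in WT against 78.0% and 81.5% in K700E, and overlapped. For introns of 1000 nt or more the chaperone values were 84.5% and 54.5% in WT against 68.8% and 74.8% in K700E. They include the unused annotated intron 1 of HSP90AB1 (1421 nt). It counts as unspliced in 81 and 60 WT reads and in 20 and 33 K700E reads, which lowers all 4 values. A read was counted over an intron in a way that requires it to span it: of nested introns, the longer had no more reads in 99.9% to 100% of pairs. An unspliced read over a long intron must therefore be a long read, and how far this sets the relation was not tested.

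**Figure D4:**
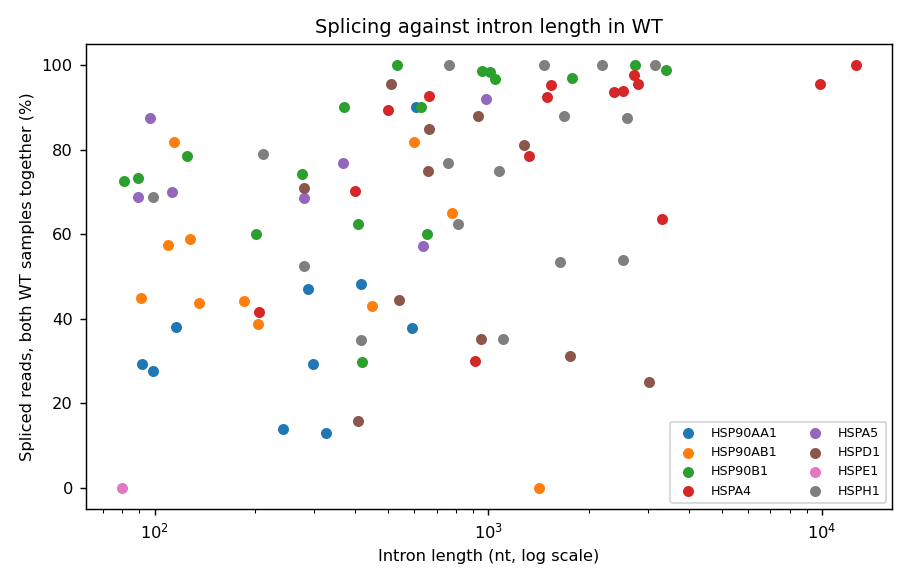
Spliced reads in both WT samples together (%, vertical axis) against intron length (nt, horizontal axis, log scale) for main-transcript introns with at least 10 WT reads, coloured by gene. The HSPA4 introns of 9883 and 12622 nt lie at 95.6% and 100%, HSP90AA1 introns of 92 to 415 nt lie under 50%, and HSP90AB1 intron 1 and HSPE1 intron 3 lie at 0.

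The promoters of the 8 genes were searched for 2 motifs on both strands, in RefSeq windows (GRCh38.p14) from 250 bases before to 50 after a start. The heat shock element, read as GAA, TTC and GAA each parted by 2 bases, or its reverse complement, was found for HSP90AA1, HSP90AB1 and HSPD1 and in 0.490% of 35116 promoters. The HSP90AB1 window belongs to a start that lies inside the first intron of the main transcript. The endoplasmic reticulum stress element, CCAAT and CCACG parted by 9 bases, was found for HSPA5 and HSP90B1 and in 0.0769% of promoters. A match describes letters and not occupancy. The matches are in capitals. HSP90AB1, HSPD1 and HSP90B1 held 2 each, overlapping in HSPD1, and 1 is shown per gene.
HSP90AA1, chr14:102087100-102087152, minus strand: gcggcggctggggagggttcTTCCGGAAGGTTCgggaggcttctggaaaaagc
HSP90AB1, chr6:44247811-44247863, plus strand: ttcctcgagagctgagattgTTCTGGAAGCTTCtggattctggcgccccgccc
HSPD1, chr2:197500048-197500090, minus strand: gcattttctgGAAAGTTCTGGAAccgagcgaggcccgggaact
HSPA5, chr9:125241371-125241429, minus strand: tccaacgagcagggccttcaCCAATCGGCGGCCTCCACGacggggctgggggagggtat
HSP90B1, chr12:103930196-103930254, plus strand: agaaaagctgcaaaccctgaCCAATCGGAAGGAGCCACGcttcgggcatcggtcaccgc

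Other genes of protein folding were counted from 7 lists of 100 genes in all, of which 95 had reads and 57 were tested for efficiency. None was called (edgeR; 2 had an unadjusted p under 0.05, and DESeq2 called 0), and 36 had a lower and 21 a higher mean in K700E, with a median difference of -2.18 points. Over all genes tested 3173 of 5085 had a lower mean. Groups did not overlap in 13 of the 57 with K700E lower and in 3 with K700E higher, against 21.1% and 10.3% of all genes. The mitochondrial proteostasis genes were lower in 6 of 6, with a median of -12.5 points. The HSP70 relatives were lower in 3 of 5, with a median of -11.4, and the HSP40 and HSP70 co-chaperones were higher in 9 of 16, with a median of 3.55. The single heat shock factor tested was lower, by 11.3 points. The HSP90 relatives and co-chaperones were higher in 5 of 8, with a median of 4.80 points, and CCT and prefoldin genes were lower in 7 of 8, with a median of -3.73. Among the endoplasmic reticulum folding genes 9 of 13 were lower, with a median of -2.57. There CANX, the lectin chaperone calnexin, stood at 72.9% and 62.0% in WT against 26.7% and 33.1% in K700E. DNAJC3, an HSP40 co-chaperone of BiP, stood at 81.3% and 100% in WT against 46.0% and 51.1% in K700E, on 15 overlaps in WT replicate 2. FKBP4, an immunophilin partner of HSP90, stood at 32.1% and 39.4% in WT against 47.4% and 47.2% in K700E. The other genes with the widest separation of a list were HSPA4L (88.9% and 73.4% in WT, 38.5% and 71.1% in K700E), CCT6A (72.0% and 47.8%, 43.8% and 36.3%), AFG3L2 (84.1% and 68.2%, 48.7% and 58.2%), HSF2 (67.7% and 72.7%, 65.0% and 52.8%) and DNAJC9 (34.1% and 45.7%, 46.7% and 46.2%). For all 8 the adjusted p was 0.9995 (edgeR).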

How the data were processed

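Long-read counts came from 4 K562 samples, 2 WT and 2 K700E. For each annotated intron the authors deposited 2 raw counts, of all reads over it and of reads carrying its junction, and the ratio of the second to the first (CoSE). Cutadapt, minimap2 and hg38 are named in the submitters' processing notes. The sources used here do not state tool versions, how reads were assigned or whether strand was used. Rows were placed on GENCODE 29 by transcript, intron number, start and strand (87.3% to 87.6% of rows). Left out were 84 to 86 rows per sample of HSPD1 transcripts that this release holds but that could not be placed. Also left out were 8 to 13 rows per sample from each of several transcripts of the HSPD1 region that the release lacks. Introns were counted once per coordinates, and ratios above 1 (2.23% to 4.16% of rows) were set to 1. A table of RNA 3′ end positions, whose rows bear no identifiers, was not used.

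Spliced and unspliced counts were tested as paired columns with the edgeR 4.0.16 quasi-likelihood test (R 4.3.3), p adjusted by Benjamini-Hochberg over all features that reached 10 reads in each sample. Introns used a dispersion of 0, carried over from an earlier account that chose it on simulated counts, so the p of an intron depends little on how its own replicates scatter. Genes used an estimated dispersion. Introns spliced in all or no reads were not tested, which left 5093 of 6141. Nascent reads were scaled by TMM. DESeq2 1.42.0, other filters, scalings and left-out samples were alternatives. The intron fit with either dispersion and the main fits of genes and nascent reads were tested on simulated data; the other alternatives were not. Exact permutation of 2 against 2 samples cannot pass 0.05.

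The main transcript had the best APPRIS rank, then support level, then coding length. Values per sample are given for the most and least spliced well-covered intron of a gene, its most read intron, introns whose groups do not overlap and differ by at least 10 points, and annotated alternatives with at least 5% of the junction reads of a main intron. Genes of other lists are named where groups do not overlap and the change is the largest in a list. The members, lists and rules were chosen with earlier results of these data known.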

Additional observations from a re-analysis of the deposited data

How the results depend on the processing

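Depth limits these results: K700E replicate 1 had 7717 introns with at least 10 reads, and the chaperone genes had 670 overlaps there. The number of introns called was 5, and it was 1 with an estimated dispersion, 0 with DESeq2, 3 with the replicate block and 0 to 10 with single samples left out (0 without K700E replicate 2, 10 without WT replicate 2, 2 without K700E replicate 1). The number of genes called for efficiency was 0 and became 1 with DESeq2; it was 0 in every fit that left out a sample. The number called for nascent reads was 0 and became 1 with DESeq2, 1 with no minimum, 4 with the sum over introns, 1 with the replicate block and 85 without WT replicate 2 (0 to 85 over the left-out samples). Total-count scaling moved the median log2 fold change of all genes from -0.04 to 0.43, and the 3 tested chaperone genes stayed lower in K700E, at -1.08, -0.91 and -0.59 for HSP90AB1, HSPA5 and HSP90B1. No chaperone intron or gene was called for efficiency under any of these alternatives. For introns with an estimated dispersion that outcome decides nothing. On simulated counts that fit recovered 0% of introns with a log2 odds ratio of 4. The shared replicate numbers are not said to pair samples, and replicates with the same number deviated with correlations of -0.16 (intron efficiency) and -0.07 (nascent reads). The replicate block called 0 chaperone introns and genes. The median WT level of the 8 genes, 56.8%, ranged from 50.3% to 63.1%.

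With single samples left out, 9 differences changed sign. The HSPA4 gene difference ran from -16.6 to 6.91 points (positive without WT replicate 1 or K700E replicate 1) and that of HSPA5 from -0.576 to 20.1 (negative without WT replicate 2). HSP90AB1 intron 2 ran from -0.014 to 12.9 points, HSP90B1 intron 11 from -20.8 to 3.33 and intron 12 from -24.5 to 3.26 (both positive without K700E replicate 1), HSPA5 intron 1 from -22.8 to 11.7 (positive without WT replicate 1 or K700E replicate 1) and intron 6 from -6.80 to 31.2 (negative without WT replicate 2). The nascent log2 fold change ran from -2.08 to 1.36 for HSP90B1 and from -2.33 to 0.43 for HSPA5. The cause was not tested. Differences in percentage points are the same under most fits by construction. The fitted odds ratios of the 15 chaperone introns were lower in K700E for 6, and for 4 with an estimated dispersion, with DESeq2 and with the replicate block. Under settings that left out no sample, no named chaperone value passed the threshold.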
